A study of Mus musculus with 6 samples.

Results

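The transcripts of 10 transcription factors that set up and keep B-lineage identity were followed in activated splenic B cells with and without the aryl hydrocarbon receptor (AhR), a ligand-activated transcription factor. The factors were Pax5, Ebf1, Spi1, Spib, Pou2af1, Pou2f2, Ikzf1, Ikzf3, Ets1 and Mef2c, taken by symbol from a table of 23420 genes. Of these, 9 were listed under the symbol used here, and Spi1 was listed under its older symbol, Sfpi1. All 10 were among the 13682 genes with enough reads to be tested. Libraries came from 3 Ahr+/+ and 3 Ahr-/- mice, and the labels give C57Bl/6J as the background strain of both. The study's methods list a germline null allele, B6.129-Ahr tm1Bra/J, under the name Ahr-/-, but the study also calls B cells with Ahr deleted by mb1 Cre by that name, and the labels do not say which was used here. Mice were past 8 weeks of age. B cells of both genotypes were cultured for 8 h with α-IgM at 10 µg/ml, which engages the B-cell receptor, and with IL-4 at 20 ng/ml. After 4 h of this culture the cells also received FICZ, a high-affinity AhR ligand, at 250 nM. No library without α-IgM, IL-4 or FICZ was analysed here, so all differences are between genotypes in activated and ligand-exposed cells.

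B-lineage commitment is driven by a small network of transcription factors. EBF1 and PAX5 switch on genes of the B-cell receptor complex and its signalling, and PAX5 also holds down genes of other lineages and of plasma cells. PU.1 (Spi1) and Spi-B (Spib) are ETS-family relatives that bind similar sites, OCT-2 (Pou2f2) and its coactivator OBF-1 (Pou2af1) act together at octamer sites, and Ikaros (Ikzf1) and Aiolos (Ikzf3) are zinc-finger relatives that can pair with each other.

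Total counts were between 22095096 and 53648787 per library. A floor of 3 counts corresponded to between 0.0559 and 0.136 CPM, a unit that adjusts each count for the depth of its library. This floor accounts for counting error alone. Each of the 10 factors had 845 or more counts in each library. Cyp1a1, a direct AhR target, had between 4743 and 5404 counts in the Ahr+/+ libraries and between 4 and 7 in the Ahr-/- libraries, which matches the genotypes on the labels. The count of Ahr covers the whole gene and does not check the deletion, and its mean of 13175 ± 682 normalized counts for Ahr+/+ stood against 9174 ± 472 for Ahr-/- (SD, n = 3). The labelled cell type was checked with marker genes. The 7 B-cell markers, among them Ms4a1 and Cd79b, summed to between 1990 and 2459 CPM over the 6 libraries, against at most 9.37 CPM for 7 T-cell markers, 12.5 CPM for 5 natural killer cell markers and 39.3 CPM for 8 macrophage markers. The sums were higher for 10 plasmacytoid dendritic cell markers, at between 321 and 383 CPM, and for 6 plasma-cell markers, at between 399 and 582 CPM, and both lists hold genes that B cells also express, such as Tcf4 and Xbp1. The globin genes Hba-a1 and Hbb-b1 had no counts in any library.

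Of the 10 factors, 6 differed between genotypes with an adjusted p-value under 0.05 in edgeR's quasi-likelihood test, adjusted over all genes tested. Pax5 and Pou2af1 were higher in Ahr-/- B cells, while Pou2f2, Ikzf3, Ebf1 and Ets1 were lower. Spi1, Spib, Ikzf1 and Mef2c did not pass the threshold. Over all genes tested, 17.9% passed it, 9.79% as higher and 8.13% as lower. Since the factors are well counted, the share among the 6213 genes that averaged 1000 normalized counts or more is a closer background, and it was 21.3%. The ranges of both genotypes were apart for the same 6 factors, against 33.5% of all genes tested and 38.2% of the well-counted genes. The median log2 fold change of the 10 factors was -0.02, against 0.00 over all genes, and the median absolute log2 fold change was 0.21, against 0.11. A log2 fold change here is Ahr-/- over Ahr+/+, so a negative value is a lower level in Ahr-/- B cells. Normalized counts are counts divided by the relative library size after TMM scaling. The p-values by edgeR weigh each difference against the spread between these 3 mice per genotype, moderated by the spread over all genes tested. An exact permutation test on 3 against 3 cannot go below 0.1. In bulk RNA, fewer cells expressing a factor and less of its RNA per cell cannot be told apart.

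**Figure D1:**
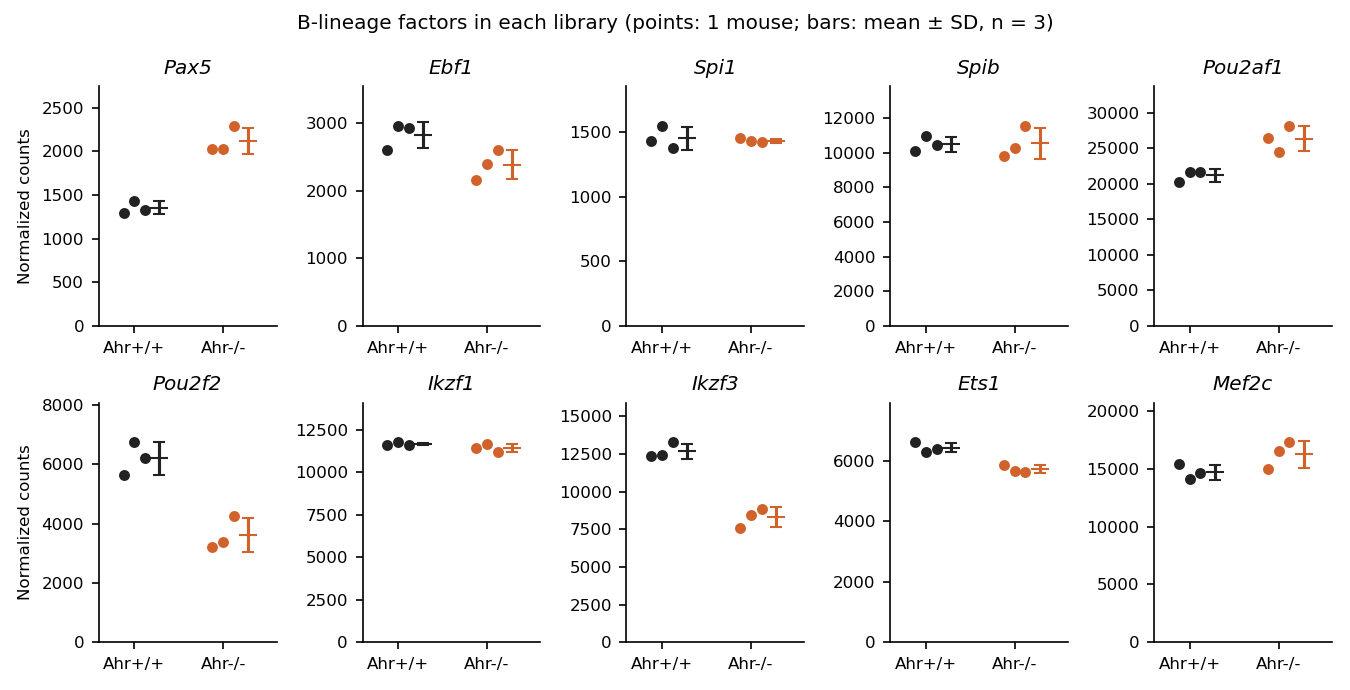
Normalized counts of each factor (vertical axes, starting at 0) in the 3 Ahr+/+ libraries (black) and the 3 Ahr-/- libraries (orange), with each point 1 mouse and bars the mean ± SD. The groups do not overlap for Pax5, Pou2af1, Pou2f2, Ikzf3, Ebf1 and Ets1, and they overlap for Spi1, Spib, Ikzf1 and Mef2c.

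The AhR with its partner ARNT binds sites that hold the core GCGTG, so the 250 bases before each annotated transcription start were searched for this core on both strands. RefSeq promoter windows (GRCm38.p6) were matched for 7 of the 10 factors, with 11 windows in all. Spi1, Ikzf3 and Ets1 had no window here. The core was found in 2 of the 11 windows, against 28.2% of 32851 windows of the same length. It occurred once in the Pax5 window, starting 220 bases before the start, and 2 times in 1 of the 2 Ebf1 windows. The windows of Pou2af1, which rose with Pax5, and of Pou2f2, which had the largest fall, did not hold these letters. The sequences below show these factors, 5′ to 3′ on the strand of the gene, with the core or its reverse complement CACGC in capitals. They lie at chr4:44710695-44710944 on the minus strand (Pax5), chr11:44619978-44620227 on the plus strand (Ebf1), chr9:51213440-51213689 on the plus strand (Pou2af1) and chr7:25132461-25132710 on the minus strand (Pou2f2). For the Pax5, Ebf1 and Pou2af1 windows shown, the bases after the start were not found in the GENCODE transcripts of these genes. Their starts, among them those of each window with the core, are thus less certain. The Ebf1 and Pou2f2 windows shown lie inside their annotated genes.
Pax5: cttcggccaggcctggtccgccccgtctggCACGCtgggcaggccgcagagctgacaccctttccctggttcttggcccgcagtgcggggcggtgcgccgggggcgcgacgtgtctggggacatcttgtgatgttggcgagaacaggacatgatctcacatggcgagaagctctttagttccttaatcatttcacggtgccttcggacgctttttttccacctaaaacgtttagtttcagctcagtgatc
Ebf1: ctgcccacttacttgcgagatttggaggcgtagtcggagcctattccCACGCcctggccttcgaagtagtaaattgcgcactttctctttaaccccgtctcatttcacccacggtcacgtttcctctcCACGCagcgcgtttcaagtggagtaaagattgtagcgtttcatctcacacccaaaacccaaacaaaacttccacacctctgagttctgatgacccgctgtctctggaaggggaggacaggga
Pou2af1: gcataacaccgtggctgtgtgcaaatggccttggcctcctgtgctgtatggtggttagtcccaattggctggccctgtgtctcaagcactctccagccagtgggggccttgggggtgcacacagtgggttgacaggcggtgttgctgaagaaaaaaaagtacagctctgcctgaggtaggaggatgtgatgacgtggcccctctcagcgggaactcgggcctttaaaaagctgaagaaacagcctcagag
Pou2f2: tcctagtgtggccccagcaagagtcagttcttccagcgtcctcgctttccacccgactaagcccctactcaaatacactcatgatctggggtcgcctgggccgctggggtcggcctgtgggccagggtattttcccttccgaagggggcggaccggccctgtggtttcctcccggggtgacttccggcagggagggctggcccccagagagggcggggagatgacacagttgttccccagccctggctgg

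The octamer ATGCAAAT, the site of OCT-2, was in none of the 11 windows on either strand, against 1.6% of all windows. The PU box core GAGGAA, bound by PU.1 and Spi-B, was in 4 of the 11 windows (1 of Ebf1, 2 of Mef2c and that of Pou2f2), against 23.3% of all windows. These matches describe the letters in the windows and do not show binding.

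Pax5 rose and Ebf1 fell in Ahr-/- B cells. Pax5, the paired-box factor that commits progenitors to the B lineage, lies on the minus strand at chr4:44524757-44710487. For Pax5, the Ahr+/+ mice gave 1292, 1437 and 1333 normalized counts, and the Ahr-/- mice gave 2030, 2031 and 2291. The lowest Ahr-/- value stood well above the highest Ahr+/+ value. Pax5 was 1.57-fold higher in Ahr-/- B cells, with a log2 fold change of 0.65 (SE 0.058, adjusted p = 5.8e-06 by edgeR). Ebf1, the early B-cell factor that acts upstream of Pax5 in development, lies at chr11:44617317-45008091 on the plus strand. For Ebf1, the Ahr+/+ mice gave 2606, 2959 and 2926 normalized counts, and the Ahr-/- mice gave 2163, 2399 and 2598. The groups came close, with 2606 as the lowest Ahr+/+ and 2598 as the highest Ahr-/- value. Its log2 fold change was -0.24 (SE 0.064, adjusted p = 0.0218 by edgeR). The call for Ebf1 was lost without Ahr+/+ replicate 2 or 3 or without Ahr-/- replicate 1 or 2, with adjusted p-values by edgeR between 0.0653 and 0.0928. Pax5 overlaps 3 annotated genes on the opposite strand and Mir5120 on its own strand, and Ebf1 overlaps 1 on the opposite strand. The sources used here do not say if the counting took strand into account.

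Pou2f2 fell while its coactivator Pou2af1 rose. Pou2f2 encodes OCT-2, a POU-domain factor that binds the octamer of immunoglobulin promoters, and lies at chr7:25087344-25179726 on the minus strand. For Pou2f2, the Ahr+/+ mice gave 5643, 6730 and 6213 normalized counts, and the Ahr-/- mice gave 3213, 3367 and 4265. Ahr-/- replicate 3 was the highest of its group and still below every Ahr+/+ library. Pou2f2 was 1.71-fold lower in Ahr-/- B cells, the largest absolute change of the 10 factors, with a log2 fold change of -0.77 (SE 0.092, adjusted p = 6.8e-05 by edgeR). It also varied most among replicates, with a coefficient of variation of 15.7% in the Ahr-/- group. Pou2af1 encodes OBF-1, which does not bind DNA on its own but is held at octamer sites by OCT-1 or OCT-2, and lies at chr9:51213708-51240080 on the plus strand. For Pou2af1, the Ahr+/+ mice gave 20171, 21628 and 21693 normalized counts, and the Ahr-/- mice gave 26443, 24497 and 28118. All 3 Ahr-/- libraries were above all 3 Ahr+/+ libraries. The log2 fold change was 0.32, a 1.25-fold higher level (SE 0.049, adjusted p = 6.2e-04 by edgeR). Pou2f2 overlaps 1 annotated gene on the opposite strand and Mir6537 on its own strand, and Pou2af1 overlaps Gm47828 on its own strand.

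Of the Ikaros relatives, Ikzf3 fell and Ikzf1 did not pass the threshold. Ikzf3 encodes Aiolos, which restrains signalling through the B-cell receptor, and lies at chr11:98464902-98546031 on the minus strand. For Ikzf3, the Ahr+/+ mice gave 12356, 12431 and 13264 normalized counts, and the Ahr-/- mice gave 7577, 8434 and 8873. The gap between the groups was wider than the range within either of them. Ikzf3 was 1.53-fold lower, with a log2 fold change of -0.61 (SE 0.053, adjusted p = 5.2e-06 by edgeR). Ikzf1 encodes Ikaros, needed from the earliest lymphoid progenitors on, and lies at chr11:11685003-11772926 on the plus strand. For Ikzf1, the Ahr+/+ mice gave 11634, 11757 and 11626 normalized counts, and the Ahr-/- mice gave 11427, 11681 and 11169. Ahr-/- replicate 2 lay among the Ahr+/+ values. The log2 fold change was -0.03, with a 95% confidence interval from -0.10 to 0.04 (adjusted p = 0.607 by edgeR). Ikzf1 overlaps 2 annotated genes on the opposite strand, and Ikzf3 overlaps Gm25106 on its own strand.

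Among the ETS factors, Ets1 fell modestly, whereas neither Spi1 nor Spib passed the threshold. Ets1, which holds back plasma-cell differentiation, lies at chr9:32636221-32757820 on the plus strand. For Ets1, the Ahr+/+ mice gave 6601, 6292 and 6400 normalized counts, and the Ahr-/- mice gave 5868, 5657 and 5615. The groups were apart, and the replicates of each agreed to a coefficient of variation of 2.43% and 2.37%. The log2 fold change was -0.17, a 1.13-fold lower level (SE 0.038, adjusted p = 0.0068 by edgeR). Ets1 is also expressed in T cells, and the summed level of the 7 T-cell markers was between 5.64 and 9.37 CPM in Ahr+/+ and between 5.22 and 5.48 CPM in Ahr-/- libraries, with 2 of the 7 lower and none higher. It is expressed in natural killer cells as well, of whose 5 markers 2 were higher and none lower, with sums between 4.93 and 8.38 CPM in Ahr+/+ and between 7.88 and 12.5 CPM in Ahr-/- libraries. The part of these cells in the Ets1 value was not tested. Ets1 overlaps 1 annotated gene on the opposite strand.

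Spi1 encodes PU.1, which works in myeloid as well as B-lineage cells, and lies at chr2:91082390-91115756 on the plus strand. For Spi1, the Ahr+/+ mice gave 1427, 1546 and 1377 normalized counts, and the Ahr-/- mice gave 1450, 1429 and 1421. The Ahr-/- values fell inside the Ahr+/+ range. The log2 fold change was -0.02, with a 95% confidence interval from -0.13 to 0.09 (adjusted p = 0.847 by edgeR). Spib encodes Spi-B, found in B cells and plasmacytoid dendritic cells, and lies at chr7:44525993-44532071 on the minus strand. For Spib, the Ahr+/+ mice gave 10081, 10937 and 10433 normalized counts, and the Ahr-/- mice gave 9803, 10251 and 11541. The highest and the lowest of the 6 values were both in the Ahr-/- group. The log2 fold change was 0.01, with a 95% confidence interval from -0.11 to 0.13 (adjusted p = 0.946 by edgeR). Of 10 plasmacytoid dendritic cell markers, 8 were higher and 1 was lower in Ahr-/- B cells, and their summed level was between 321 and 351 CPM in Ahr+/+ and between 348 and 383 CPM in Ahr-/- libraries. Siglech, a defining marker of these cells, averaged 56.8 ± 4.19 normalized counts for Ahr+/+ and 270 ± 32.3 for Ahr-/- (SD, n = 3). Tcf4, the most abundant of the 10 and also expressed in B cells, was the lower one, at 7537 ± 330 against 4680 ± 226. Without Tcf4, the other 9 summed to between 133 and 155 CPM in Ahr+/+ and between 223 and 268 CPM in Ahr-/- libraries. Of these 9, Ly6d had by far the largest rise in normalized counts, from 1654 ± 137 to 4058 ± 380, and Siglech added little to the sum. Of 8 conventional dendritic cell markers, 4 were higher and 1 was lower, with a summed level between 21.3 and 24.4 CPM in Ahr+/+ and between 23.0 and 27.9 CPM in Ahr-/- libraries. The lower one, Zbtb46, was the most abundant of the 8, at 552 ± 23.9 against 418 ± 23.2 normalized counts. The median log2 fold change of the 8 was 0.90. Of 8 macrophage markers, 1 was higher and 1, Emr1, was lower, and their median log2 fold change was 0.49. Their sum was between 31.5 and 39.3 CPM in Ahr+/+ and between 16.2 and 29.1 CPM in Ahr-/- libraries, but Emr1 alone went from 650 ± 14.7 to 54.1 ± 16.1 normalized counts, and the other 7 summed to between 14.5 and 22.1 CPM in Ahr+/+ and between 15.2 and 27.5 CPM in Ahr-/- libraries. The part of such cells in the values of Spi1 and Spib was not tested.

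Mef2c, a MADS-box factor that acts in B-cell receptor-driven proliferation, lies at chr13:83504034-83667080 on the plus strand. For Mef2c, the Ahr+/+ mice gave 15382, 14119 and 14580 normalized counts, and the Ahr-/- mice gave 14956, 16511 and 17248. Ahr-/- replicate 1 lay within the Ahr+/+ range and the other two Ahr-/- libraries lay above it. The log2 fold change was 0.15 (SE 0.051, adjusted p = 0.0728 by edgeR) and did not pass the threshold. It did pass without Ahr-/- replicate 1, with an adjusted p-value of 0.00926 by edgeR, and also with DESeq2, with scaling by library size alone and without the filter on low counts.

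**Figure D2:**
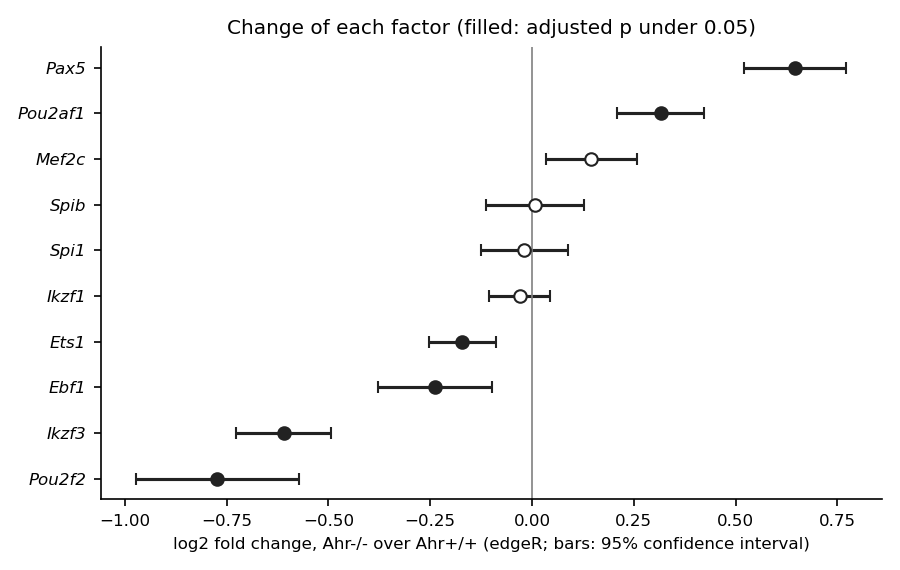
Log2 fold change of each factor, Ahr-/- over Ahr+/+ (horizontal axis). Bars are 95% confidence intervals derived from the edgeR test, and factors with an adjusted p-value under 0.05 are filled. The changes run from -0.77 for Pou2f2 to 0.65 for Pax5, with the intervals of Spi1, Spib and Ikzf1 across 0.

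Partners and relatives within the network were then set against each other by the ratio of their raw counts in each library, which does not depend on how libraries are scaled. The ratio of Pou2af1 to Pou2f2 was between 3.21 and 3.57 in Ahr+/+ and between 6.59 and 8.23 in Ahr-/- B cells. On average it was 2.14-fold higher in Ahr-/- B cells, a difference of 1.10 on the log2 scale. The ratio of Pax5 to Ebf1 was between 0.456 and 0.496 in Ahr+/+ and between 0.847 and 0.939 in Ahr-/- B cells, a difference of 0.89 on the log2 scale. The ratio of Ikzf1 to Ikzf3 was between 0.877 and 0.946 in Ahr+/+ and between 1.26 and 1.51 in Ahr-/- B cells, so that Ikzf3 had the more counts in Ahr+/+ and Ikzf1 in Ahr-/- B cells. For these 3 ratios the groups did not overlap, and the two-sided exact permutation test gave p = 0.1, the smallest possible here, or 0.133 after adjustment over the 4 ratios. The ratio of Spi1 to Spib was between 0.132 and 0.142 in Ahr+/+ and between 0.123 and 0.148 in Ahr-/- B cells, with overlapping groups (exact permutation p = 0.8).

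**Figure D3:**
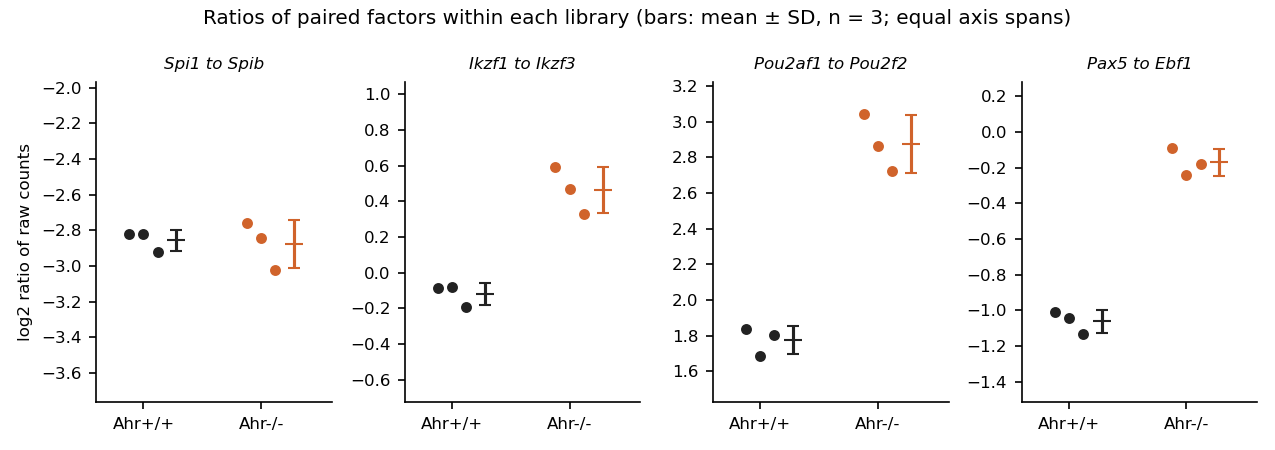
Log2 ratio of the raw counts of 4 pairs of factors in each library (vertical axes of equal span), with points for single mice in Ahr+/+ (black) and Ahr-/- (orange) and bars for the mean ± SD. The Pou2af1 to Pou2f2, Pax5 to Ebf1 and Ikzf1 to Ikzf3 ratios are higher in all 3 Ahr-/- libraries, and the Spi1 to Spib ratios overlap.

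Levels were compared between factors as CPM per kilobase of annotated exon. Pou2af1 had the highest level, at 216 ± 8.79 for Ahr+/+ and 269 ± 18.5 for Ahr-/- (SD, n = 3), followed by Spib at 95.1 ± 3.90 and 95.5 ± 8.18. Ikzf1 came next in both genotypes, at 52.6 ± 0.330 and 51.5 ± 1.15. In Ahr+/+ B cells Ikzf3 (37.7 ± 1.50), Mef2c (24.3 ± 1.06), Ets1 (19.7 ± 0.480), Pou2f2 (19.6 ± 1.72), Spi1 (14.0 ± 0.841), Ebf1 (7.55 ± 0.520) and Pax5 (3.98 ± 0.219) followed. Of these neighbours, only Ets1 and Pou2f2 overlapped in their library values. In Ahr-/- B cells Mef2c (26.9 ± 1.94) and Ikzf3 (24.7 ± 1.96) overlapped, Spi1 (13.8 ± 0.148) stood above Pou2f2 (11.4 ± 1.79), and Ebf1 (6.36 ± 0.581) and Pax5 (6.22 ± 0.442) overlapped at the low end. The order depends on the length used, and with the longest annotated transcript Ikzf3 and Mef2c stood above Ikzf1 in Ahr+/+ B cells.

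**Figure D4:**
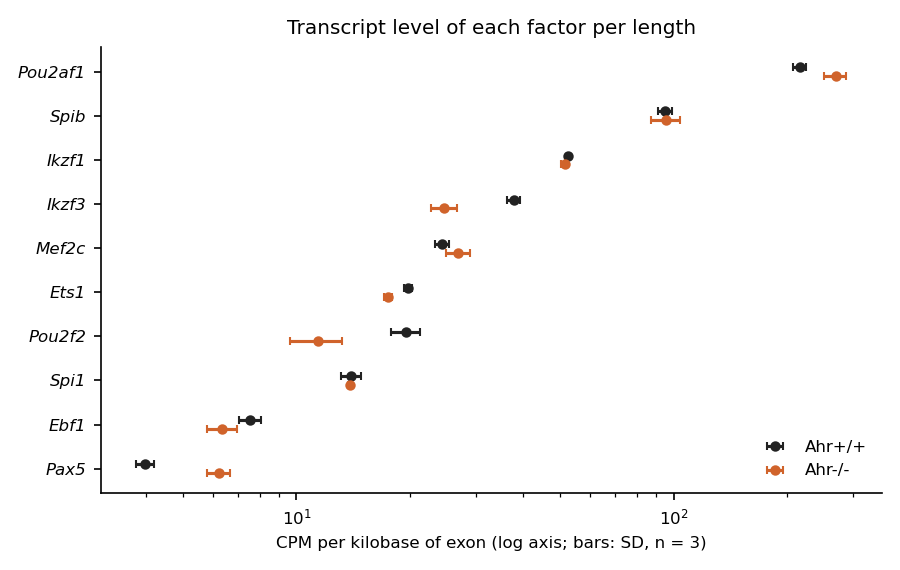
Level of each factor in CPM per kilobase of annotated exon (horizontal log axis) in Ahr+/+ (black) and Ahr-/- (orange) B cells, as the mean with the SD over 3 mice. Pou2af1 and Spib lead in both genotypes, and Pax5 has the lowest mean in both.

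Relatives of the 10 factors by DNA-binding family were described next. Of 20 tested, 8 passed the threshold (40.0%, against 17.9% of all genes tested and 21.3% of the well-counted genes), 3 as higher and 5 as lower, with a median log2 fold change of -0.01. Mef2b, a relative of Mef2c, had the largest change and fell from 489 ± 68.5 to 96.2 ± 7.30 normalized counts (log2 fold change -2.33, SE 0.122, adjusted p = 4.7e-08 by edgeR). Mef2a and Mef2d did not pass, at 0.10 and -0.01. Fli1, an ETS factor, fell by 0.68 on the log2 scale, Etv6 rose by 0.47 and Etv3 fell by 0.29, and Ets2 and Elk1 were the other higher ETS genes, at 0.13 and 0.21. Elf4 fell by 0.18. Pou2f1, which encodes the OCT-1 relative of OCT-2, fell by 0.19. Ikzf2, Ikzf4 and Ikzf5 did not pass. Ebf2, Ebf3 and Ebf4 had too few counts to be tested. The count of 8 fell to 5 without Ahr+/+ replicate 3 and to 4 without Ahr-/- replicate 2. These relatives and the lists that follow were chosen with earlier results of these data known. Their shares past the threshold are therefore descriptions and not tests.

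Of 12 other regulators of the B lineage, 4 passed the threshold (33.3%, against 17.9% of all genes tested and 21.3% of the well-counted genes), 3 as higher and 1 as lower. Runx1, a core lymphoid factor, fell from 3340 ± 66.2 to 1108 ± 39.4 normalized counts, a log2 fold change of -1.59 (SE 0.041, adjusted p = 5.6e-11 by edgeR). Lef1, Irf8 and Bcl11a rose by 0.58, 0.34 and 0.29 on the log2 scale. Irf8 and Bcl11a are also expressed in dendritic cells, of whose markers 8 of 10 (plasmacytoid) and 4 of 8 (conventional) were higher, and the part of such cells in these values was not tested. The remaining 8, among them Tcf3 (0.12), Foxo1 (0.05) and Bach2 (-0.15), did not pass.

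Genes known to be switched on by PAX5 or EBF1 were mostly higher in Ahr-/- B cells. Of 11 tested, 7 were higher and 1 was lower, against a background of 9.79% higher and 8.13% lower, and the median log2 fold change was 0.26 against 0.00 over all genes. Cd72, an inhibitory coreceptor, rose from 8332 ± 607 to 12604 ± 1243 normalized counts (log2 fold change 0.60). Siglecg, another inhibitory receptor, rose by 0.52, Bcar3 by 0.45 and Cd79b, the Igβ chain of the B-cell receptor, by 0.35. Fcer2a, Cd79a and Cr2 were the other 3 higher genes. Blnk, the adaptor of B-cell receptor signalling, fell by 0.19. Cd79a and Cd79b also stand among the 7 B-cell markers, of which 4 were higher and none lower, with sums between 1990 and 2096 CPM in Ahr+/+ and between 2352 and 2459 CPM in Ahr-/- libraries. Cr2 also stands among 6 marginal zone B-cell markers, of which 2 were higher and 2 lower, with sums between 871 and 952 CPM in Ahr+/+ and between 777 and 836 CPM in Ahr-/- libraries. Without Dtx1, which fell from 10628 ± 703 to 3156 ± 206 normalized counts, the other 5 summed to between 582 and 691 CPM in Ahr+/+ and between 701 and 751 CPM in Ahr-/- libraries. The part of the cell mixture in these values was not tested.

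Genes known to be held down by PAX5 were mostly lower. Of 9 tested, 6 were lower and 1 was higher, against a background of 8.13% lower and 9.79% higher, and the median log2 fold change was -0.57 against 0.00 over all genes. Notch1, the receptor that drives the T-cell fate, fell from 2363 ± 157 to 1205 ± 90.3 normalized counts (log2 fold change -0.96). Igj, the joining chain of secreted antibody, fell by 0.92, Cd28 by 0.86 and Prdm1, which encodes the plasma-cell regulator Blimp-1, by 0.64. Grap2 and Emb were the other lower genes. Xbp1, a driver of the secretory programme, rose by 0.25. Several of these genes also mark other cell types: Prdm1, Igj and Xbp1 stand among 6 plasma-cell markers, of which 2 were lower and 1 was higher, with sums between 414 and 582 CPM in Ahr+/+ and between 399 and 456 CPM in Ahr-/- libraries. Without Igj, the other 5 summed to between 244 and 270 CPM in Ahr+/+ and, in the other direction, to between 287 and 315 CPM in Ahr-/- libraries. Sdc1, the defining surface marker of plasma cells, had a log2 fold change of -0.10 and did not pass. Cd28 also stands among the 7 T-cell markers, of which it and Cd3e (log2 fold change -1.26) were the 2 lower ones, with the sums given beside Ets1. Flt3, also a dendritic cell marker, and Csf1r, also a macrophage marker, did not pass, at -0.20 and 0.60. The part of plasma cells, T cells and myeloid cells in these values was not tested.

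Of 5 genes known as targets of PU.1, Spi-B or OCT-2, 4 passed the threshold (80.0%, against 17.9% of all genes tested and 21.3% of the well-counted genes), 3 as higher and 1 as lower. Cd36, a scavenger receptor whose expression in B cells needs OCT-2, rose from 178 ± 11.5 to 452 ± 98.5 normalized counts (log2 fold change 1.33, SE 0.146, adjusted p = 3.5e-05 by edgeR). Cxcr5, the follicular homing receptor, rose by 0.28 and Ms4a1, which encodes CD20, by 0.26. Btk, the kinase downstream of the B-cell receptor, fell by 0.15, and Fcgr2b did not pass, at -0.08. Cd36 is also expressed in macrophages and dendritic cells, whose markers are given with Spi1 and Spib, and the part of such cells in its value was not tested.

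**Figure D5:**
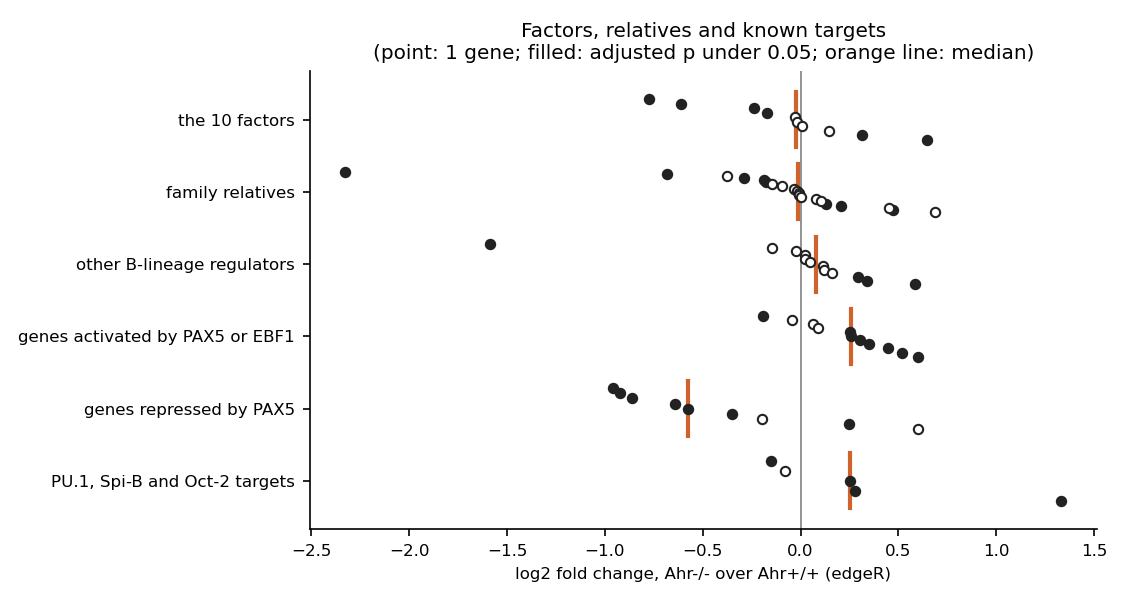
Log2 fold change, Ahr-/- over Ahr+/+ (horizontal axis), of the 10 factors and of genes in 5 related lists, with each point 1 tested gene, filled points an adjusted p-value under 0.05 by edgeR and orange lines the median. The median lies at 0.26 for genes activated by PAX5 or EBF1, at -0.57 for genes repressed by PAX5 and at -0.02 for the factors.

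For each factor that passed the threshold, the genes with the most similar pattern over the 6 libraries were found among 9682 genes averaging 100 normalized counts or more. They are the extremes of many genes over 6 points that fall into 2 genotypes, and are given as a description. Pax5 was most like Lyl1 (Pearson r of 0.9974) and Dusp10 (0.9966), which were higher in Ahr-/- B cells by 0.54 and 0.67 on the log2 scale. Pou2af1 was most like Crtap (0.9945) and Slc37a2 (0.9909). Pou2f2 was most like Sipa1l2 (0.9959) and Egr3 (0.9958), an early response gene of antigen receptor signalling with a log2 fold change of -0.67. Ikzf3 was most like Sytl3 (0.9981) and Klf13 (0.9979), with log2 fold changes of -1.13 and -0.50. Ebf1 was most like Iars (0.9933) and Zfp335 (0.9909), and Ets1 was most like Prpf4 (0.9953) and Cd2ap (0.9949).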

How the data were processed

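RNA from splenic B cells of 3 Ahr+/+ and 3 Ahr-/- mice was made into stranded mRNA libraries (TruSeq) and read on an Illumina sequencer. The authors deposited raw counts of reads per gene, and the submitters' processing notes name mm10, TopHat2, HTSeq and DESeq. Parameters and the use of strand in counting are not given in the sources used here. The authors' normalized values and their own comparison table, which holds fold changes and p-values, were not used.

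Counts were tested with edgeR 4.0.16 (limma 3.58.1, R 4.3.3): quasi-likelihood test, TMM factors, a minimum of 10 counts per gene summed over the 6 libraries, a prior count of 0.125, and Benjamini-Hochberg adjustment over all genes tested at 0.05. The procedure was tested on simulated data. Each SE was derived from the log2 fold change and the F statistic of this test. Intervals are at 95% and use this SE with the t distribution at the test's degrees of freedom. DESeq2 1.42.0, other scalings, filters and thresholds, a replicate block and leaving out each library were alternatives. Levels per length used the GENCODE annotation of GRCm38, and promoter windows came from RefSeq. The factors and related lists were chosen with earlier results of these data known. Named from each list were at most the 4 genes with the largest change among those past the threshold, with others where a count of 5 or fewer was given or where a known role made a value of interest after it was seen. Replicates of a genotype differed beyond sampling noise, at 3.96 or more for chi-square over its degrees of freedom, and each was counted once.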

Additional observations from a re-analysis of the deposited data

How the results depend on the processing

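Of the 10 factors, 8 stayed on their side of the threshold under all 14 alternatives tried, and of these only Spi1 and Spib, with values near 0, changed sign. Pax5 stayed between 0.58 and 0.69, Pou2af1 between 0.26 and 0.37, Pou2f2 between -0.91 and -0.70, Ikzf3 between -0.66 and -0.55 and Ets1 between -0.19 and -0.15 on the log2 scale. The adjusted p-value of Pou2f2 was 0.0227 with the robust form of edgeR's quasi-likelihood fit, against 6.8e-05 in the main fit. The call for Ebf1 was lost without single libraries, at log2 fold changes between -0.24 and -0.18. Mef2c passed with library size alone (0.17, adjusted p = 0.0313 by edgeR), without the filter (0.14, 0.0356), with DESeq2's Wald test (0.14, 0.0340) and without Ahr-/- replicate 1 (0.20). The number of factors passing was between 5 and 7. That of genes activated by PAX5 or EBF1 was between 6 and 9, and that of genes repressed by PAX5 was between 5 and 7. At an adjusted p-value under 0.01, 1473 genes passed over the whole table, against 2453 at 0.05, and 4 of the family relatives. With single libraries left out, between 4 and 7 family relatives and between 1664 and 2601 genes passed. The Spi1 to Spib difference of -0.02 (log2) ran from -0.08 to 0.05, the higher end without Ahr-/- replicate 3.

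Same-numbered libraries had correlations of -0.149, 0.258 and -0.188 in their deviations from the genotype means. Those with different numbers had between -0.348 and 0.368. The labels do not say if mice were paired by number, and 3 mice per genotype are too few for these values to decide it. With the number as a replicate block, 2303 genes and the same number of factors, 6, passed. Depth was lowest in Ahr-/- replicate 1. Without untreated libraries, effects of genotype on resting cells cannot be told apart from those on activation.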
